A study of Mus musculus with 4 samples.

Results

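The hippocampus of mice lacking both Ogg1 and Mutyh was compared with the wild-type hippocampus, gene by gene, in 1 library a side. A gene entered the comparison when its mean level over the 4 libraries of the study was at least 1 RPKM (reads scaled to the length of the gene and to the reads of the library), and a gene absent from a table was taken as 0. Of 18492 genes listed in any library, 13186 met this rule. All mice were C57BL/6 animals aged 6 months, and the 4 genotypes were wild type (WT), Ogg1-/- (Ogg1 KO), Mutyh-/- (Mutyh KO) and Ogg1-/- Mutyh-/- (double knockout, DKO; written Ogg-/- Mutyh-/- in its label). No treatment is named for any group, and the making of the knockout alleles is not described in the labels. The labels state neither the sex nor the number of mice behind a library. Xist, the RNA of the inactive X chromosome, had 14, 23, 10307 and 29 reads, and the Y-linked Ddx3y 9.71, 9.17, 3.63 and 10.5 RPKM in the order WT, Ogg1 KO, Mutyh KO and DKO, so that Mutyh KO stood apart in sex-linked transcripts and DKO was near WT. Values for all 4 libraries are given in this order throughout.

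Ogg1 and Mutyh belong to the base excision repair system for 8-oxoguanine, the commonest oxidised form of guanine. The glycosylase Ogg1 cuts 8-oxoguanine out when it is paired with cytosine, and Mutyh removes an adenine that a polymerase has placed opposite an unrepaired 8-oxoguanine, so that the pair acts in sequence on the same lesion. Nudt1 works upstream of both by clearing the oxidised nucleotide from the pool. The hippocampus, a brain region for memory and spatial navigation, holds granule cells of the dentate gyrus and pyramidal cells of the CA fields. It lies against the choroid plexus of the ventricles, the epithelium that makes cerebrospinal fluid, and close to the meninges.

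The libraries held 17.02 M to 18.2 M reads in genes (M, mega), and WT, with 18.12 M, was nearly as deep as DKO, with 18.2 M. WT and DKO shared 17006 listed genes, 581 were listed in DKO only and 413 in WT only, the most read of these with 48 and 9 reads. Sizes of differences are log2 ratios of RPKM after 1 RPKM was added to each side, DKO over WT, so that 1 stands for 2-fold higher on this scale. Read ratios per library total are given with an exact 95% interval that covers counting error only. With 1 library a side no difference has a replicate check, and no test between the genotypes was possible.

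The targeted genes were read first. Ogg1 had 94, 130, 81 and 103 reads, so that its total did not set the Ogg1-deficient libraries apart. The share of the gene's length covered by reads was 86.7%, 47.2%, 81.5% and 46.4%, low in both libraries labelled as lacking Ogg1 and high in both others. Coverage was compared over the 12633 genes with at least 30 reads in WT and in DKO and levels within 1.5-fold on the scale of RPKM plus 1, on which weakly expressed genes can differ by more in reads. Of these, 3 genes (0.0237%) had a covered share at least 25 points lower in DKO, and Ogg1 had the largest difference of them, -40.3 points, ahead of the clone-named A530058N18Rik and of Acer2, an enzyme of ceramide breakdown, at 72.7%, 62.3%, 79.7% and 47.2%. The labels do not say which exons of Ogg1 the knockout lacks. Directions below therefore refer to the library labelled DKO.

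Mutyh, below the level needed for the comparison, had 39, 35, 15 and 20 reads and a covered share of 55.9%, 57.1%, 18.4% and 27.6%. Its read ratio of DKO to WT was 0.5104 (0.282 to 0.897). Both libraries labelled as lacking Mutyh were lower than both others in reads and in covered share. Nudt1 had 24, 28, 24 and 33 reads, a ratio of 1.37 (0.785 to 2.42) that includes 1. The other base excision repair genes lay near WT: 8 of the 18 compared were higher and 10 lower, with a median log2 ratio of -0.00, and none was 1.5-fold different. Over all compared genes, 49.3% were higher and 50.7% lower by any amount, and differences of 1.5-fold or more were upward for 1.62% and downward for 0.394%. The repair genes ranged from -0.32 for Pold1, the catalytic subunit of DNA polymerase delta (2.96, 1.99, 2.81 and 2.16 RPKM), to 0.26 for Lig1, a DNA ligase (2.28, 3.13, 2.83 and 2.94 RPKM). Neil1, another glycosylase for oxidised bases, was at -0.01, and Apex1, the endonuclease that cuts the strand after base removal, was at -0.01.

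Genes next to the targeted loci were read from their order in RefSeq. Among the 40 compared genes nearest to Ogg1 on chromosome 6, 16 were higher and 24 lower in DKO, with a median of -0.04, and 1 passed 1.5-fold. That gene was Camk1, a calcium- and calmodulin-dependent kinase and the first compared gene after Ogg1. It had 19.6, 6.55, 20.5 and 5.94 RPKM, low in both libraries labelled as lacking Ogg1 and alike in both others, with a log2 ratio of -1.57 and a read ratio of 0.303 (0.251 to 0.363). Its covered share followed, at 95.9%, 69.8%, 98.5% and 71.9%. The other 39 lay between -0.37 (Rpusd3) and 0.47 (Itpr1, a calcium release channel). Among the 40 compared genes nearest to Mutyh on chromosome 4, 16 were higher and 24 lower, with a median of -0.02 and a range of -0.29 to 0.28. Past 1.5-fold, chromosome 6 held 19 higher and 8 lower genes among 647 compared, 4.17% together, the highest share of any chromosome. Chromosome 4, which carries Mutyh, held 7 higher and 6 lower among 817, 1.59% together. The part of the gene lists described below in the chromosome 6 share was not tested.

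Most transcripts were at similar levels in both libraries. The median log2 ratio was -0.00, and 98.0% of the 13186 genes lay within 1.5-fold. Differences past 2-fold were mostly upward, with 72 genes (0.546%) higher in DKO by that size and 6 (0.0455%) lower. At 1.5-fold there were 213 higher (1.62%) and 52 lower (0.394%). The intervals excluded a ratio of 1 for 68 of the 72 and 4 of the 6, and 8 of the 72 and 2 of the 6 were shorter than 200 bases. Just inside the limit were Serpind1 at 1.002 and Slc47a1 at 1.01, and just outside it Slc22a8 and Anxa4, both at 0.98. On the lower side Snord14e, with 5 reads in WT and 1 in DKO, was just inside at -1.33, and 4732415M23Rik and Dok3 were just outside, both at -0.98. Of the 72 genes, 41 belonged to 1 or more of the gene lists and 31 to none.

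**Figure D1:**
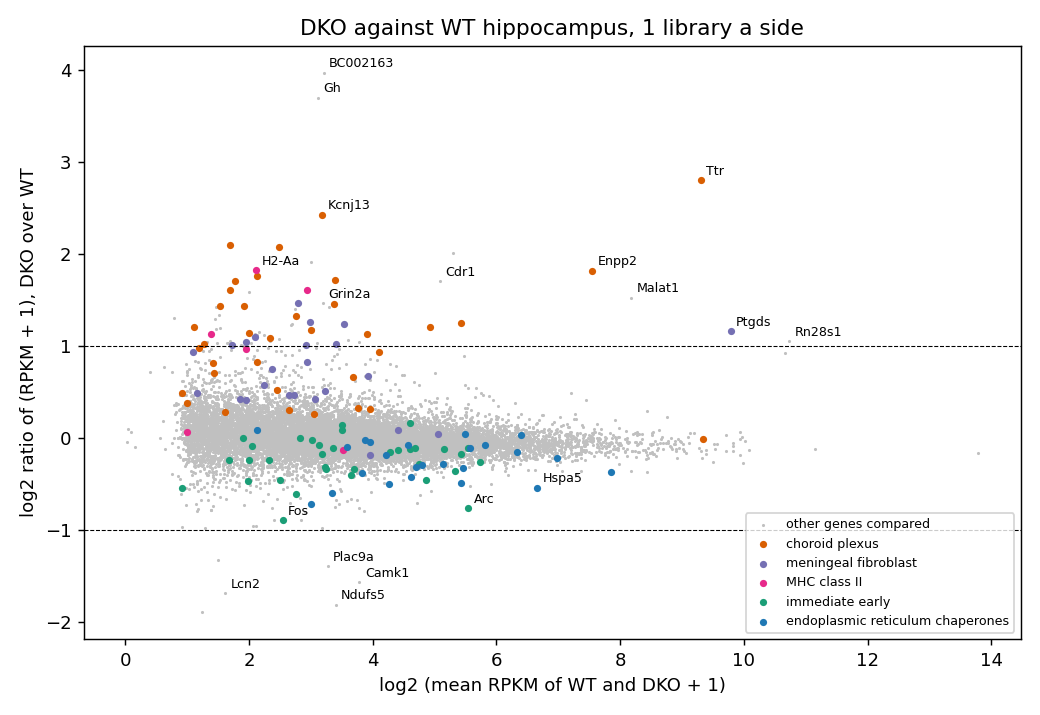
Each point is a gene compared, with the log2 of its mean RPKM over WT and DKO plus 1 on the horizontal axis and its log2 ratio of DKO over WT on the vertical axis; dashed lines mark 2-fold. All but 1 gene each of the choroid plexus, meningeal and MHC class II lists lie above 0 and most immediate early and endoplasmic reticulum chaperone genes below it, with Gh at 3.70 and Ndufs5 at -1.82.

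Hormone genes of the pituitary, the gland below the hypothalamus, were read in DKO at levels not seen in the other libraries. Gh, which encodes growth hormone, had 4, 7, 1 and 256 reads (0.236, 0.4398, 0.0624 and 15.04 RPKM). DKO was far above all 3 other libraries, with a log2 ratio of 3.70 and a read ratio to WT of 63.7 (24.6 to 236). Prl, which encodes prolactin, had 0, 5, 4 and 48 reads, at least 15.9-fold higher than WT against a floor of 3 reads. Pomc, the precursor of the hormone ACTH, had 6, 11, 5 and 38 reads, a ratio of 6.304 (2.64 to 18.2). These hormones are made by different pituitary cells, the somatotrophs, lactotrophs and corticotrophs.

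The remaining hormone subunits were counted in few reads. Cga, the alpha subunit shared by the glycoprotein hormones, had 8 reads in DKO and 0 in the other libraries, Tshb had 0, 2, 3 and 7 reads, and Lhb 4, 9, 8 and 14 reads. Fshb, the beta subunit of follicle-stimulating hormone, had 0 reads in both WT and DKO, and Pou1f1, the transcription factor of Gh and Prl cells, had 1, 0, 1 and 0 reads. Together the 11 members took 0.938, 2.17, 1.52 and 20.8 reads per M. Only Gh reached the level needed for the comparison. Hcrt, the orexin precursor made by neurons of the lateral hypothalamus, was on the other side in these hippocampal libraries, with 16, 2, 62 and 3 reads. Hypothalamic peptide genes as a list stood at a median of -0.05, with 5 of 14 higher.

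Choroid plexus transcripts made up the largest block of genes higher in DKO. Of 37 listed genes 36 were compared: 35 were higher and 1 lower, 27 passed 1.5-fold and 21 passed 2-fold, against 0.546% of all genes, and the median was 1.13. For 35 of the 36, WT was the lowest of the 4 libraries, which held for 30.7% of all genes. The list took 2570.0, 8018, 8149.8 and 5064 reads per M, so that DKO lay between WT and both single knockouts. Much of the WT sum came from Atp1b1, which neurons express, with 28382, 30109, 25411 and 28169 reads. The secreted proteins and carriers alone took 705, 5294, 5605 and 2904 reads per M. In bulk tissue, a different number of cells of a type and a different amount of RNA per cell cannot be told apart. The part of tissue content in these differences was not tested.

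Secreted proteins and carriers were higher in 11 of 11 cases, with a median of 1.21. Ttr, the carrier of thyroid hormone and retinol, had 158, 2274, 2169 and 1105 RPKM, a read ratio of DKO to WT of 6.99 (6.75 to 7.24). Enpp2, which makes lysophosphatidic acid, had 81.7, 512, 538 and 289.7 RPKM. Folr1, a folate receptor that moves folate into the cerebrospinal fluid, had 1.14, 13.6, 16.4 and 8.05 RPKM, and F5, coagulation factor V, 0.999, 9.84, 13.4 and 5.78 RPKM. All of them were lowest in WT and lower in DKO than in either single knockout. Igf2, a growth factor that the choroid plexus and meninges secrete, had 24.6, 78.99, 114 and 59.7 RPKM, and its binding protein Igfbp2 17.3, 47.6, 53.5 and 41.2 RPKM. Prlr, the prolactin receptor, had 1.49, 9.04, 20.8 and 4.49 RPKM.

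Ion and water transport genes were higher in 11 of 12 cases, with a median of 0.57. Kcnj13, an inward rectifier potassium channel of the apical membrane, had 1.84, 24.3, 29.7 and 14.3 RPKM, the highest log2 ratio of the group at 2.42. Kcne2, a potassium channel subunit, had 1.03, 12.9, 12.1 and 4.51 RPKM, the bicarbonate transporter Slc4a5 0.601, 7.04, 9.29 and 3.89 RPKM, and the water channel Aqp1 0.55995, 6.04, 6.403 and 3.205 RPKM. Slc13a4, a sulfate transporter that meningeal cells also make, had 3.91, 14.6, 20.5 and 15.1 RPKM and DKO was close to Ogg1 KO. The members that other brain cells express strongly differed less. Slc12a2, the sodium, potassium and chloride cotransporter, was at 0.32, and Atp1b1, a sodium pump subunit of neurons, had 647, 730.3, 612 and 639 RPKM and was the 1 lower member at -0.02.

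Junction proteins, transcription factors and the other members were higher in 13 of 13 cases, with a median of 1.02. Cldn2, which forms a cation pore in tight junctions, had 0.609, 8.09, 8.51 and 4.26 RPKM. Tmem72, a membrane protein, had 0.232, 9.19, 4.11 and 4.25 RPKM, a read ratio of 18.3 (10.7 to 34.03), with DKO close to Mutyh KO. Ace, the angiotensin-converting enzyme, had 4.51, 24.2, 28.96 and 14.2 RPKM, Kl, the klotho gene, 8.42, 32.8, 40.9 and 19.5 RPKM, and Sostdc1, a secreted antagonist of BMP and Wnt signals, 2.87, 18.1, 17.1 and 8.69 RPKM. Htr2c, a receptor for serotonin found on neurons and on this epithelium, had 11.3, 18.99, 20.2 and 14.1 RPKM.

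**Figure D2:**
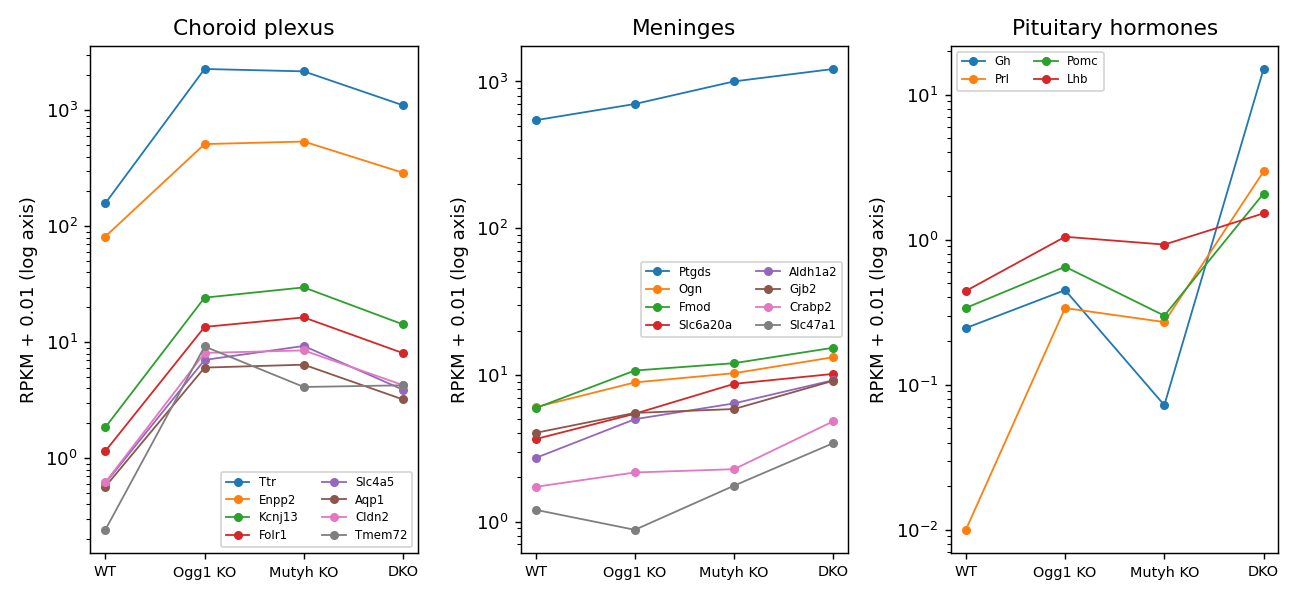
RPKM plus 0.01 on a log axis in the 4 libraries, 1 line a gene, for 8 choroid plexus genes, 8 meningeal genes and 4 pituitary hormone genes. Choroid plexus lines peak in the single knockouts, all meningeal lines are highest in DKO, and Gh, Prl and Pomc stand out in DKO alone.

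Meningeal fibroblast genes were higher in 23 of the 24 compared, 13 of them past 1.5-fold and 9 past 2-fold, with a median of 0.71. DKO was the highest of the 4 libraries for 20 of the 24, against 19.6% of all genes. The list took 820.4, 1026, 1319 and 1559 reads per M. Ptgds, the enzyme that makes prostaglandin D2, had 544, 702, 1002 and 1217 RPKM, a read ratio of 2.24 (2.18 to 2.295). Aldh1a2, which makes retinoic acid in the meninges, had 2.71, 4.98, 6.39 and 9.197 RPKM. Slc6a20a, a proline transporter, had 3.64, 5.43, 8.68 and 10.2 RPKM. These genes were ordered in the same way, with WT lowest and DKO highest.

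The matrix proteoglycans Fmod and Ogn had 5.93, 10.7, 12.02 and 15.3 RPKM and 6.02, 8.88, 10.3 and 13.2 RPKM. Crabp2, a carrier of retinoic acid, had 1.72, 2.15, 2.27 and 4.82 RPKM, the gap junction gene Gjb2 4.02, 5.498, 5.85 and 9.12 RPKM, and Foxc2, a transcription factor of the developing meninges, 0.463, 1.05, 1.11 and 1.79 RPKM. The organic ion transporters Slc22a6 and Slc47a1 had 1.54, 2.29, 2.61 and 4.23 RPKM and 1.19, 0.8698, 1.75 and 3.42 RPKM. DKO was the highest library for each of them. Dcn, a proteoglycan that neurons of the hippocampus express as well, was level at 0.04. The fibril collagens Col1a1 and Col1a2 stood at 0.58 and 0.75.

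Genes outside the lists included several that were also highest in DKO. Spp1, the secreted phosphoprotein osteopontin, had 4.29, 6.58, 8.61 and 13.2 RPKM, a read ratio of 3.08 (2.495 to 3.82). Aebp1, a matrix protein of connective tissue, had 6.82, 8.97, 13.6 and 15.3 RPKM, and Prg4, the lubricating proteoglycan lubricin, 1.78, 1.73, 2.78 and 5.15 RPKM. Ccl19, a chemokine that draws lymphocytes and dendritic cells, had 9, 18, 23 and 37 reads, S100a4 6, 8, 12 and 24 reads and Bmp4, a bone morphogenetic protein, 30, 59, 79 and 99 reads. Cdh1, the epithelial cadherin, was near 2-fold on the same scale, at 0.438, 0.652, 1.22 and 1.77 RPKM. By contrast, Sulf1, Pcolce, Trpv4 and Slc2a12 had the order seen for the choroid plexus, with 2.81, 11.9, 12.8 and 7.93 RPKM for the sulfatase Sulf1 and 1.07, 6.04, 6.92 and 3.21 RPKM for the cation channel Trpv4.

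Vessel genes differed less. Smooth muscle and pericyte genes were higher in 13 of 15 cases, with a median of 0.44 and 3 past 1.5-fold: Acta2, smooth muscle actin (16.1, 22.6, 19.04 and 26.5 RPKM), Myh11, smooth muscle myosin (4.55, 5.26, 4.84 and 7.75 RPKM), and Tagln, transgelin (6.16, 8.07, 6.44 and 10.1 RPKM). DKO was highest in 9 of the 15, against 19.6% of all genes. Endothelial genes were higher in 15 of 20 cases with a median of 0.11, and Vwf, the clotting glycoprotein, was the 1 member past 1.5-fold (3.41, 3.77, 4.78 and 6.01 RPKM). Collagens stood at a median of 0.18, 15 of 18 higher, led by Col8a2 (1.096, 3.63, 6.801 and 3.34 RPKM) and Col9a3 (4.62, 13.2, 18.2 and 10.5 RPKM), both highest in Mutyh KO. Blood cell genes were higher in 5 of 6 cases, with a median of 0.59. Hba-a2, an alpha-globin gene with a near-identical copy, had 52, 110, 180 and 95 reads, and Alas2, which begins heme synthesis in red cells, 56, 76, 187 and 117 reads.

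**Figure D3:**
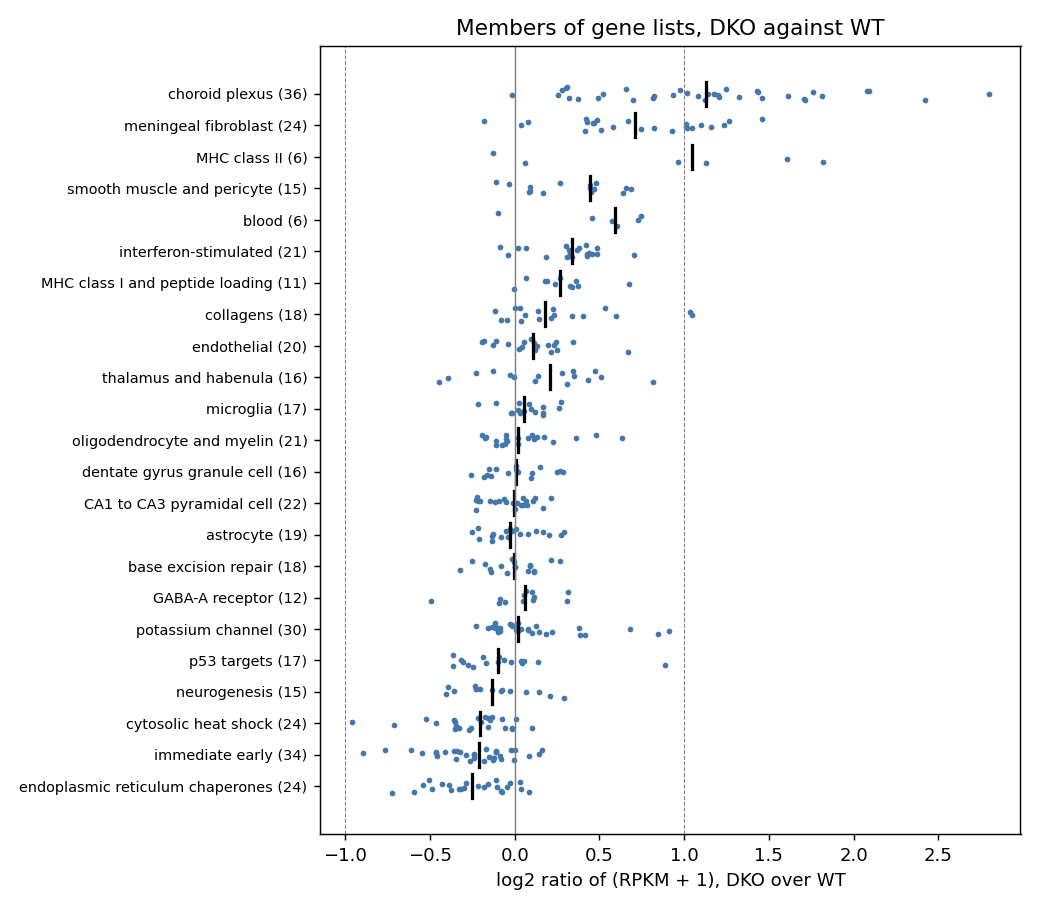
Each point is a member of the list named at the left (number of members compared in parentheses), placed at its log2 ratio of DKO over WT, and black bars are medians; dashed lines mark 2-fold. Medians run from 1.13 for the choroid plexus and 1.05 for MHC class II to -0.25 for endoplasmic reticulum chaperones.

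MHC class II genes encode the proteins that present peptides to helper T cells, and in the brain they are carried mainly by macrophages at its borders and by activated microglia. Of the 6 compared, 5 were higher in DKO and 3 passed 2-fold, against 0.546% of all genes, with a median of 1.05. Their medians over the same WT were 0.87 in Ogg1 KO and 0.76 in Mutyh KO. H2-Aa had 18, 84, 73 and 114 reads, a read ratio of 6.304 (3.81 to 11.02). Cd74, the invariant chain that guides class II proteins, had 72, 246, 176 and 274 reads, H2-Eb1 19, 63, 61 and 78 reads and H2-Ab1 35, 70, 59 and 89 reads. For these 4 genes WT was the lowest library and DKO the highest. The peptide exchange factors H2-DMa and H2-DMb1 were level, at -0.13 and 0.06, and Ciita, the master regulator of the class, had 16, 23, 35 and 24 reads.

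Beside this, microglia genes had a median of 0.05 with 13 of 17 higher and none past 1.5-fold, and C1qa, a complement gene of microglia, had 36.7, 31.3, 35.4 and 38.1 RPKM. Perivascular macrophage genes took 32.2, 32.5, 42.4 and 42.6 reads per M, and Mrc1, their mannose receptor, had 50, 77, 100 and 105 reads. The part of these cells in the class II difference was not tested. MHC class I and peptide loading genes were higher in 10 of 11 cases, with a median of 0.27. Their median over the same WT was 0.24 in each single knockout. WT was the lowest library for 9 of the 11, against 30.7% of all genes, and DKO the highest for 3. Interferon-stimulated genes were higher in 19 of 21 cases, with a median of 0.34, 12 intervals above 1 and 1 below. Their medians over WT were 0.15 in Ogg1 KO and 0.28 in Mutyh KO. WT was lowest for 16 of the 21 and DKO highest for 8. An interval above 1 was found for 16.2% of all genes and one below 1 for 17.2%. Gbp2, a GTPase that attacks the vacuoles of intracellular microbes, had 1.74, 2.38, 2.34 and 3.47 RPKM, and Ifit1, which binds viral RNA, 1.42, 1.51, 1.84 and 2.39 RPKM, both highest in DKO.

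Some of the most abundant noncoding RNAs were higher in DKO. Malat1, a long RNA retained in nuclear speckles, had 148, 307, 316 and 428 RPKM, a read ratio of 2.89 (2.84 to 2.94). Cdr1, whose locus gives rise to an abundant neuronal circular RNA, had 14.99, 27.4, 36.9 and 50.97 RPKM; the table does not tell the circular form from others. WT was the lowest and DKO the highest library for both. Meg3, another abundant nuclear RNA, was level at 550.5, 596, 613 and 573 RPKM, and Bc1, a short RNA of dendrites, had a log2 ratio of -0.16.

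The ribosomal RNA genes took 0.733%, 0.351%, 1.37% and 1.48% of reads, and Rn28s1 had 1109.8, 612, 2047 and 2294 RPKM. Rn18s had 1121, 331, 2146 and 2131 RPKM, and Rn7sk, which restrains transcription elongation, 30.3, 6.901, 52.5 and 57.1 RPKM. For these WT stood between Ogg1 KO and the other libraries. Several genes past 2-fold were precursors of small RNAs shorter than 200 bases and rested on few reads, among them Mir9-1 with 1, 0, 6 and 5 reads, Mir677 with 1, 0, 2 and 6 reads and Snora81 with 8, 10, 17 and 26 reads. Whether the handling or quality of the RNA moved with these values was not tested.

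Long genes stood lower in WT than in each knockout library as a class. Of the 224 compared genes of at least 10000 bases, 199 were higher in DKO and 25 lower, with a median of 0.22. The medians of this class over the same WT library were 0.15 in Ogg1 KO and 0.19 in Mutyh KO. Of the 805 genes of 500 to 1000 bases 326 were higher in DKO and 479 lower, with a median of -0.04. The median covered share of the longest class was 91.2%, 94.1%, 94.7% and 95.6%, lowest in WT. The length classes were set after values had been seen. By the same coverage rule, 10 genes (0.0792%) had a covered share at least 25 points higher in DKO. Some of the 10 also had about 2-fold more reads in DKO, such as Col4a5 (95, 147, 195 and 191 reads) and Thbs2 (90, 142, 145 and 172 reads), and the part of read number in their coverage was not tested. The 10 included Fras1, a basement membrane protein at 42.8%, 66.8%, 65.3% and 68.95%, Col4a5, a basement membrane collagen at 43.9%, 53.4%, 68.8% and 70.1%, Thbs2, a matrix glycoprotein at 46.03%, 57.5%, 65.2% and 71.8%, and Pqlc1 at 21.4%, 29.8%, 45.5% and 54.6%. Pqlc1 had 353, 268, 346 and 354 reads, so that WT and DKO were nearly equal in reads. Vps13d and Utrn, chosen here after their values were seen, had covered shares of 71.3%, 90.1%, 89.2% and 94.4% and of 67.5%, 86.8%, 85.2% and 92.4%.

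**Figure D4:**
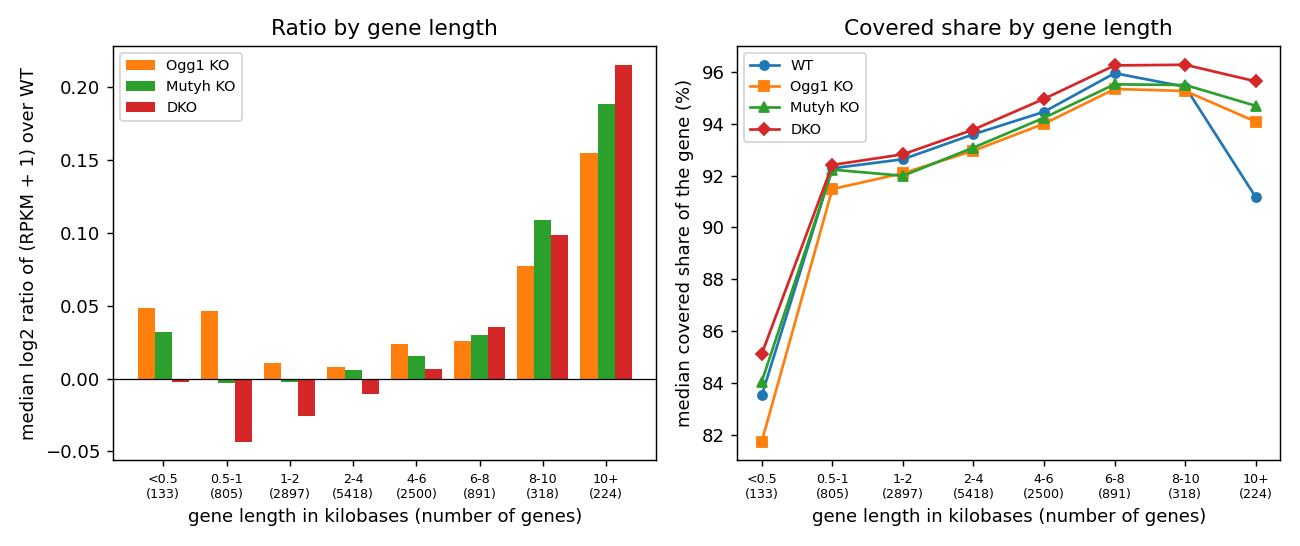
Left, the median log2 ratio of each knockout library over WT, all sharing the 1 WT library, in 8 classes of gene length (number of genes in parentheses); right, the median covered share of the gene in each library for the same classes, on an axis that does not start at 0. In the longest class the bars reach 0.15 for Ogg1 KO, 0.19 for Mutyh KO and 0.22 for DKO, and the covered share was 91.2% in WT and 95.6% in DKO.

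Among receptors for glutamate, Grin2a stood apart. NMDA receptors, which gate calcium at synapses and are needed for long-term potentiation, combine the obligatory subunit Grin1 with Grin2 subunits, of which Grin2a and Grin2b prevail in the forebrain. Grin2a had 3.87, 7.51, 8.62 and 12.4 RPKM, lowest in WT and highest in DKO, with a read ratio of 3.21 (2.82 to 3.65). Grin2b had 16.96, 9.06, 18.1 and 23.6 RPKM, highest in DKO and lowest in Ogg1 KO. Grin1 was level at 179, 150.01, 169 and 171 RPKM, Grin2d was at -0.31, Grin2c at -0.04 and Grin3a at 0.05. AMPA and kainate receptor genes were split 7 higher to 8 lower around a median of -0.01, and metabotropic receptors 4 to 3 around 0.03, with no member of either past 1.5-fold.

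Potassium channel genes had a median of 0.02 with 18 of 30 higher, and 3 passed 1.5-fold, all upward. Kcnq3, a subunit of the M-current that damps repetitive firing, had 6.46, 10.5, 10.3 and 12.9997 RPKM. Kcnma1, the large-conductance calcium-activated channel, had 10.96, 15.9, 17.1 and 20.5 RPKM, and Kcnh7, a channel of the ERG family, 1.45, 1.83, 2.24 and 2.94 RPKM. Each was lowest in WT and highest in DKO. GABA-A receptor genes had a median of 0.06 with 8 of 12 higher, and the member farthest from WT was lower: Gabra2, the alpha-2 subunit, had 69.3, 61.3, 48.1 and 48.8 RPKM. Among calcium- and calmodulin-dependent kinases, Camk4 was at 0.52 with 11.5, 14.9, 13.7 and 17.02 RPKM, and 10 of 15 members were lower.

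Other genes of neurons and signalling past or near 2-fold shared the order of Grin2a. Bmpr2, a receptor for bone morphogenetic proteins, had 7.995, 12.6, 15.9 and 17.6 RPKM. Zbed6, a repressor of Igf2, had 2.83, 7.99, 7.34 and 8.05 RPKM, and Lnpep, a peptidase that trims oxytocin, 1.98, 4.33, 4.38 and 5.47 RPKM. Erbb4, the neuregulin receptor of interneurons, had 1.22, 2.53, 3.11 and 3.29 RPKM. In all 4 genes WT was lowest and DKO highest, and the covered share of Lnpep was 73.3%, 89.4%, 90.9% and 97.8% and that of Erbb4 59.4%, 78.2%, 83.6% and 86.4%. Igsf9b, an adhesion protein of inhibitory synapses, had 1.05, 3.201, 3.12 and 3.19 RPKM, with the knockout libraries level. The part of the coverage difference in these values was not tested.

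Interneuron genes had a median of -0.04 with 11 of 18 lower. Slc32a1, which loads GABA into vesicles, had 39.4, 27.6, 33.7 and 29.1 RPKM, and Sst, the peptide somatostatin, 323, 301, 283 and 251 RPKM. Other members were higher, among them Erbb4 at 0.95, the farthest from WT, and Cort at 0.34. In this list 3 intervals were above 1 and 7 below. Dopamine and adrenergic genes had a median of -0.16 with 7 of 11 lower, and the D2 receptor Drd2 had 3.21, 2.39, 3.31 and 1.92 RPKM. Adra1a and Adra1b went the other way, at 0.33 and 0.32, and 2 intervals of the list were above 1 and 3 below. Serotonin genes had 8 of 12 lower around -0.08. Genes of synaptic vesicles and postsynaptic scaffolds were lower in 17 of 23 cases around -0.09, and none passed 1.5-fold. Their medians over the same WT were -0.07 in Ogg1 KO and -0.10 in Mutyh KO. WT was the highest library for 14 of the 23, against 25.9% of all genes, and DKO the lowest for 3.

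Immediate early genes, which neurons transcribe within minutes of firing, were lower in DKO. Of 34 compared, 30 were lower and 4 higher, with a median of -0.21, 21 intervals below 1 and 2 above. At 1.5-fold, 3 were lower, namely Fos, Arc and Npas4, against 0.394% of all genes. DKO was the lowest of the 4 libraries for 23 of the 34, and for 24.7% of all genes. The transcription factors were lower in 17 of 18 cases with a median of -0.28, and the synaptic and signalling effectors in 13 of 16 with a median of -0.14.

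Fos, which forms the AP-1 factor with Jun proteins, had 6.58, 6.77, 9.49 and 3.08 RPKM, a read ratio of 0.468 (0.373 to 0.585). Arc, which drives removal of AMPA receptors from synapses, had 57.7, 55.8, 58.5 and 33.5 RPKM, a ratio of 0.5798 (0.547 to 0.614). Npas4, a factor that calcium entry induces in neurons, had 7.23, 5.26, 8.38 and 4.37 RPKM. In these genes DKO was below all 3 other libraries, and Mutyh KO was the highest. Junb had 32.6, 30.9, 38.9 and 23.5 RPKM, Egr1 57.1, 56.1, 64.4 and 47.3 RPKM, Egr4 13.5, 14.4, 15.2 and 10.4 RPKM and the orphan receptor Nr4a1 28.4, 31.1, 33.4 and 23.1 RPKM. Egr2 was a low-level member with 67, 50, 93 and 29 reads, a ratio of 0.431 (0.269 to 0.675). The same order held for all of these, with DKO lowest and Mutyh KO highest.

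The members that did not follow were Homer1, a scaffold of postsynaptic densities (21.9, 22.9, 20.3 and 24.6 RPKM), Bdnf, the brain-derived neurotrophic factor (9.78, 8.47, 8.51 and 10.9 RPKM), Nptx2, a pentraxin that gathers AMPA receptors (0.08), and Klf2 (0.00). Plk2, a kinase induced by activity, was level at -0.03. The labels give neither the time of day nor the handling before dissection, and circadian clock genes had a median of -0.12 with 11 of 17 lower. Glucocorticoid and CRH genes had a median of -0.07 with 14 of 21 lower. The part of either in the immediate early difference was not tested.

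Promoters of immediate early genes are known for sites of serum response factor (the CArG box) and of CREB (TGACGTCA, a palindrome). RefSeq promoters of build GRCm38.p6 matched 26 of the 34 members, and the 250 bases before the start were searched on both strands. A list gene was counted when any promoter given for it matched, while the shares of all promoters count each promoter, so the units differ. The CArG box was found in 2, Egr2 and Dusp5, a phosphatase of ERK at -0.32, against 1.47% of 32851 promoters, and TGACGTCA in 1, Dusp1, against 1.55%. The window before Egr2 is shown because Egr2 had the lowest ratio of reads in the list, with the CArG box in capitals.
Egr2, chr10:67537316-67537565, plus strand: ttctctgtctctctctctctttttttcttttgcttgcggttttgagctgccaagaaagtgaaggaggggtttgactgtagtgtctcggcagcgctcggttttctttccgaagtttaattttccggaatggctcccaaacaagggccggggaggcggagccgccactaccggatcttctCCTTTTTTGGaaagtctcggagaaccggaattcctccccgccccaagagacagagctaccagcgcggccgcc
The box ends 63 bases before the start. Arc was not matched.

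Chaperones were lower in DKO, and WT was the library that stood apart. Of 24 endoplasmic reticulum chaperones and folding genes, 21 were lower and 3 higher, with a median of -0.25 and 16 intervals below 1. Of 24 cytosolic heat shock genes, 22 were lower and 2 higher, with a median of -0.21 and 18 intervals below 1. WT was the highest of the 4 libraries for 19 of 24 in each list, against 25.9% of all genes, while DKO was the lowest for 10 and 11. Within each list, the median of members centred on their mean was 0.16 in WT and between -0.08 and -0.02 in the knockout libraries.

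**Figure D5:**
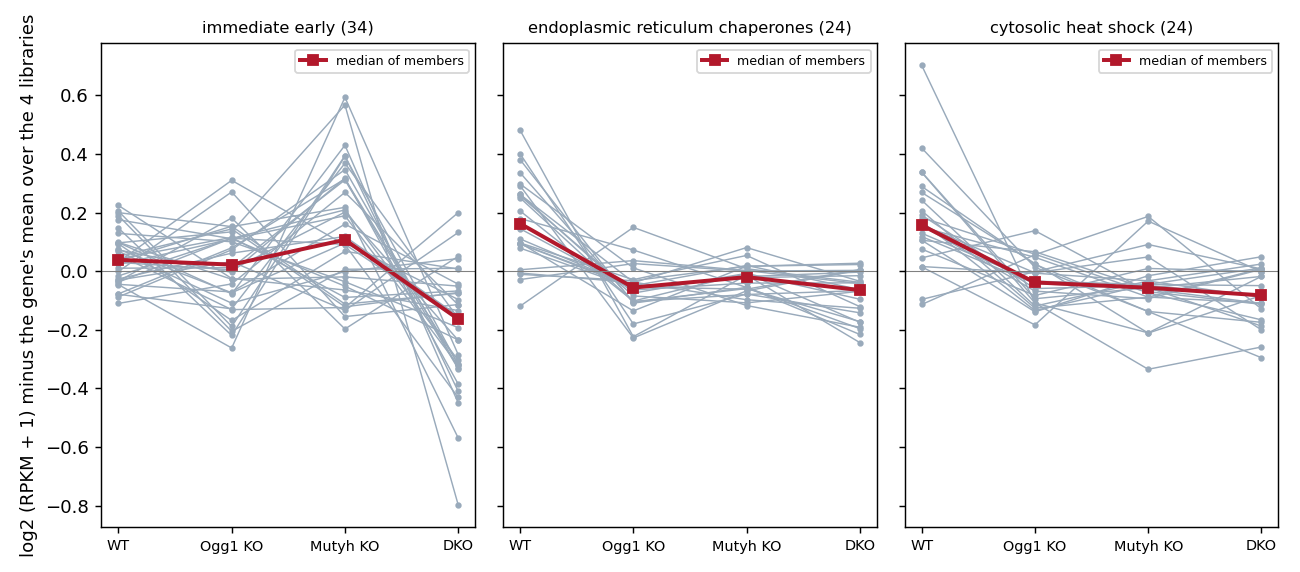
Each grey line is a list member, as log2 of RPKM plus 1 minus the gene's mean over the 4 libraries, and red squares are medians of the members. Immediate early genes are low in DKO alone (median -0.16), and both chaperone lists are high in WT alone (median 0.16 in each).

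In the endoplasmic reticulum, Hspa5, the Hsp70 that holds the stress sensors inactive, had 119, 79.1, 84.99 and 81.3 RPKM, a read ratio of 0.684 (0.656 to 0.713). Sdf2l1, its partner, had 8.94, 5.097, 6.05 and 5.01 RPKM, and the secreted factors Creld2 and Manf had 11.2, 7.67, 7.996 and 7.05 RPKM and 21.5, 15.6, 16.1 and 14.8 RPKM. Xbp1, a transcription factor of the unfolded protein response, had 49.1, 40.1, 36.6 and 34.7 RPKM. The calcium-binding chaperone Calr had 260.2, 241, 221 and 200.3 RPKM, the disulfide isomerase Pdia6 48.2, 37.7, 37.1 and 38.1 RPKM, and Hsp90b1, the Hsp90 of this compartment, 134, 123, 130.1 and 115 RPKM. All of these were highest in WT. Canx, the membrane-bound relative of Calr, was level at 0.03.

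In the cytosol, Hspa1b, a stress-inducible Hsp70 whose close copy Hspa1a could share its reads, had 4.71, 2.26, 1.78 and 1.94 RPKM, a read ratio of 0.411 (0.322 to 0.521). Hspb1, a small heat shock protein, had 12.7, 9.33, 8.305 and 7.34 RPKM, and Fkbp4, which serves Hsp90 at steroid receptors, 55.1, 40.6, 41.7 and 37.98 RPKM. The constitutive Hspa8, among the most abundant transcripts of the list, had 1113, 936, 942 and 921 RPKM. WT was highest for each of the 4, and the 3 knockout libraries lay closer to each other than to WT.

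The endoplasmic reticulum stress response element, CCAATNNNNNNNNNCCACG, binds NF-Y at its CCAAT part and ATF6 at its CCACG part. It was searched on both strands of the 250 bases before the start and found in 37 of 32851 RefSeq promoters (0.113%). Of the 24 chaperone genes 21 had a promoter there, and 8 held the element: Calr, Canx, Creld2, Dnajc3, Hsp90b1, Hspa5, Pdia6 and Syvn1. CCAAT alone, which is contained in the element, was found in 20 of the 21 and in 33.8% of all promoters. As above, list genes were counted by gene and the background by promoter, so the units differ. Members with the element did not share 1 size of difference: Creld2 was at -0.60, Hspa5 at -0.54, Calr at -0.38, Pdia6 at -0.33, Syvn1 at -0.32 and Hsp90b1 at -0.22, but Dnajc3 at -0.03 and Canx at 0.03. The windows of 5 of the lower members are shown for comparison, RefSeq build GRCm38.p6, read along the gene's strand with the element in capitals; in capitals that begin with CGTGG it lies on the opposite strand.
Hspa5, chr2:34771840-34772089, plus strand: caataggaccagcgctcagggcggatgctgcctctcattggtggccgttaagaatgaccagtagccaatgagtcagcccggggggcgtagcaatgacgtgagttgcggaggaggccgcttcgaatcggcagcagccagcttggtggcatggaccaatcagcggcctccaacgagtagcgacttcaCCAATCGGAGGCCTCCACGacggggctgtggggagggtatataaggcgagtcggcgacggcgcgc
Hsp90b1, chr10:86705445-86705694, minus strand: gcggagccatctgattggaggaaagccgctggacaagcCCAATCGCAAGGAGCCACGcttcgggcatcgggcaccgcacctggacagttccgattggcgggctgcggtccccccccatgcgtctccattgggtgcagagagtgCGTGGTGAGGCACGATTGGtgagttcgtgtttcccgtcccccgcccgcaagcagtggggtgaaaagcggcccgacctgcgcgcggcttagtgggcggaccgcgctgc
Calr, chr8:84846932-84847181, minus strand: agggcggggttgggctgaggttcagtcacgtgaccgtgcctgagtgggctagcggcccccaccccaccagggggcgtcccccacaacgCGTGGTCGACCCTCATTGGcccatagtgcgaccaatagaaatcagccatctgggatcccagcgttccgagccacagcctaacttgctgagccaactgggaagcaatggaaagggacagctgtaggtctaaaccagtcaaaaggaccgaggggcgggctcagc
Pdia6, chr12:17266339-17266588, plus strand: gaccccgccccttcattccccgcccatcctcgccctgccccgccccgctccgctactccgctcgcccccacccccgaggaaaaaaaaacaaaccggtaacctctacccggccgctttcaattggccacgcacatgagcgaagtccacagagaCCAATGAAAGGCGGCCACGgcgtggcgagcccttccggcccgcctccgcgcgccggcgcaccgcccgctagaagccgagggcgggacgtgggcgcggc
Creld2, chr15:88819396-88819645, plus strand: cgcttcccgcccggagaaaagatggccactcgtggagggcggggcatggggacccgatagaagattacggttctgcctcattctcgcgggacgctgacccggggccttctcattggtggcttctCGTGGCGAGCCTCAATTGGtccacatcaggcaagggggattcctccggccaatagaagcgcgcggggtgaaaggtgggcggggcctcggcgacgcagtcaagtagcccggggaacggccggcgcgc
Hsp90b1 held 2 copies, 1 on each strand. Among the 20 cytosolic heat shock genes with a promoter, the heat shock element (GAANNTTCNNGAA or TTCNNGAANNTTC) was found for 2, Hspd1 and Hspe1, and in 0.466% of all promoters. These motifs were chosen after values had been seen, and a match describes letters in a window, not binding. The stress response element is named for the same compartment as the chaperone list. Its share in that list therefore does not bear on DKO against WT.

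Few genes were much lower in DKO. Ndufs5, a subunit of respiratory complex I, had 151, 135, 36 and 36 reads, a log2 ratio of -1.82. BC002163, a near-identical copy named by a clone, had 1, 1, 124 and 149 reads, the highest log2 ratio of all at 3.97. Summed over both, the reads were 152, 136, 160 and 185, so that the pair as a whole was not lower in DKO. Low Ndufs5 reads and high BC002163 reads came together in both libraries labelled as lacking Mutyh. Ndufs5 lay 67 compared genes from Mutyh on chromosome 4. The counts are of unique reads, and how reads that fit both copies were handled is not given in the sources used here. The pair is therefore uncertain, and the cause of this pattern was not tested. The other complex I genes were slightly lower: over the list of 38, which includes the pair, 32 were lower and 6 higher, with a median of -0.07. Ndufa1, an X-linked subunit, had 31.8, 37.1, 30.4 and 20.3 RPKM and was the second member past 1.5-fold on the lower side.

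Lcn2, an iron-scavenging acute phase protein, had 57, 3, 21 and 7 reads, and Plac9a 114, 83, 56 and 38 reads, both highest in WT. Dok3, an adaptor of immune cells, had 309, 168, 189 and 144 reads, and Pglyrp1, which binds bacterial peptidoglycan, 103, 69, 78 and 50 reads, again with WT highest and DKO lowest. Inflammation and acute phase genes as a list were split 3 higher to 7 lower, with a median of -0.11, 3 intervals above 1 and 4 below. Past 1.5-fold, 2 members were lower and 1 higher. The higher one, Cp, had 347, 397, 480 and 573 reads, a ratio of 1.64 (1.44 to 1.88). Snord32a, the lowest log2 ratio of all, rested on 4 reads in WT and 0 in DKO.

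Some genes were low in DKO and in the single knockout that shares 1 of its deleted genes. Peg10, an imprinted gene derived from a retrotransposon, had 8.57, 5.67, 8.94 and 4.46 RPKM, and Dlk1, an imprinted ligand of the Notch family, 7.69, 5.98, 7.99 and 4.52 RPKM. Wdfy1, an endosomal adaptor, had 12.2, 8.83, 12.9 and 6.81 RPKM, and Efcab12 3.72, 2.58, 4.41 and 1.85 RPKM. In these genes Mutyh KO was level with or above WT, Ogg1 KO was lower and DKO lowest. Rab3b, a GTPase of secretory vesicles, had 16.2, 15.9, 12.2 and 9.12 RPKM, and Foxo6, a forkhead factor enriched in hippocampus, 14.5, 16.01, 9.97 and 8.74 RPKM, with Ogg1 KO near WT and Mutyh KO and DKO lower. Counted in compared genes along the chromosome, Efcab12 lay 33 and Peg10 420 places from Ogg1, and Rab3b 36 and Foxo6 43 places from Mutyh. Ano2, a calcium-activated chloride channel on chromosome 6, had 1.84, 1.38, 2.07 and 0.63995 RPKM, with DKO alone far below. Sp8, a factor of interneuron precursors, had 1.33, 0.918, 1.35 and 0.601 RPKM. On the upper side, Mid1, a ubiquitin ligase whose gene crosses the pseudoautosomal boundary in mice, had 6.46, 31.3, 5.11 and 13.5 RPKM, high in both libraries labelled as lacking Ogg1.

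The genes that mark the hippocampus itself were level. Dentate granule cell genes were split 9 higher to 7 lower around a median of 0.01, and Prox1, their defining transcription factor, had 18.4, 16.6, 20.6 and 19.7 RPKM and Calb1, a calcium buffer, 39.1, 34.3, 36.1 and 39.3 RPKM. Pyramidal cell genes of CA1 to CA3 were split 11 to 11 around -0.00, with a range of -0.23 to 0.21. Astrocyte genes had a median of -0.03 (8 of 19 higher) and oligodendrocyte and myelin genes of 0.02 (11 of 21 higher). Genes of neurogenesis were lower in 11 of 15 cases around -0.13, with 7 intervals below 1 and 2 above. Neurod2, a factor of maturing neurons, had 82.1, 70.6, 64.9 and 61.6 RPKM, and Sox11, a factor of immature ones, 5.02, 4.23, 4.2996 and 3.69 RPKM. Dcx, another member, went the other way with 390, 549, 467 and 477 reads, a ratio of 1.217 (1.063 to 1.395). Lists of neighbouring regions stood at 0.21 for thalamus and habenula (10 of 16 higher) and -0.06 for striatum (6 of 13 higher). In the thalamus list 10 intervals were above 1 and 3 below. Its member Tnnt1, a troponin gene, had 13, 18, 13 and 36 reads, while its member Calb2 was lower at -0.40.

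Damage and redox lists showed small differences. Targets of p53 were lower in 12 of 17 cases around -0.10, and Perp, a desmosomal target that epithelia also express, was the 1 past 1.5-fold, upward, with 1.97, 3.96, 4.602 and 4.51 RPKM. Nrf2 and glutathione genes were split 9 higher to 13 lower around -0.01, with none past 1.5-fold. Estrogen-related genes were split 9 to 5 around 0.06. Pgr, the progesterone receptor, had 2.91, 3.04, 2.64 and 3.05 RPKM, and Esr1, below the level needed, had 48, 62, 63 and 42 reads. Prlr, described with the choroid plexus, was the 1 member past 2-fold.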

How the data were processed

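Hippocampal RNA was sequenced in 4 libraries, 1 for each genotype, and only the tables were used here. Per the file headers, the authors gave each gene a count of unique reads, its length in bases, a coverage in percent of that length, and RPKM computed from reads, length and the library total. Per the submitters' processing notes, the build was mm9. Aligner, counter, annotation and strand setting: not given in the sources used here.

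Tables were joined on gene ID, with absent genes as 0. From the deposited RPKM, log2 ratios were computed after adding 1 RPKM, for genes with a mean of at least 1 RPKM over the 4 libraries, which understates differences of weakly expressed genes. Read ratios per library total had exact conditional 95% intervals, which cover counting error only. Counts of 0 were kept as 0, except that the ratio for Prl was taken against a floor of 3 reads in WT. The calculation was tested on simulated data. No p-value was computed. Tools were Python 3.11.15, pandas 2.3.3, numpy 2.4.6, scipy 1.17.1 and matplotlib 3.10.9, and edgeR 4.0.16 in R 4.3.3 for TMM factors of the counts only.

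The comparison and the 51 gene lists were chosen with earlier results of these data known; 907 of 929 list symbols were in the tables and 768 were compared. Length classes and promoter motifs were chosen after values had been seen. Named were the targeted genes and the 20 compared genes on each side, genes at least 2-fold different, the 30 highest and 30 lowest, the 30 with the farthest interval bound each way, the 20 largest RPKM gains and losses, per list the 8 farthest and 4 most abundant members, lists of at most 15 members and the immediate early and chaperone lists in full, and genes of the coverage rule. Clone names other than BC002163 were left out, except those that complete a short count. Other named genes were chosen after their values were seen. RefSeq, matched by gene ID for 13147 genes, gave names, gene order and promoters of another build (GRCm38.p6), so no gene coordinates are given. Alternatives were other pseudocounts, level filters, scalings and coverage limits.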

Additional observations from a re-analysis of the deposited data

How the results depend on the processing

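Each number below belongs to 1 DKO and 1 WT library, so leaving out a replicate could not be done, and differences between animals, dissections and genotypes cannot be told apart. No paired analysis was possible because each genotype had a single library. The 72 genes at least 2-fold higher became 131 with a pseudocount of 0.1 RPKM, 41 with a filter of 5 RPKM, and 41 without choroid plexus, meningeal, blood and pituitary list members, an alternative added after seeing the data. The 6 at least 2-fold lower became 27 and 13 with pseudocounts of 0.1 and 0.5 RPKM, 3 with a filter of 5 RPKM and 12 with no filter. Median-ratio, TMM and reduced-total scaling left both counts at 72 and 6. The 13 genes with a different covered share became 55 at 20 points. The cause was not tested. Of 51 list medians, 5 moved with 0.1 RPKM, 3 with 0.5 RPKM and 0 under the scalings. Low counts limit Mutyh, the hormone genes besides Gh, and RNAs under 200 bases.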
